A study of Mus musculus with 16 samples.

Results

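The AP-1 and immediate early genes described here were Fos, Fosb, Jun, Junb, Jund, Atf3, Egr1, Klf6, Ier2 and Zfp36, 10 genes chosen by symbol out of the 54532 in the deposited table. All 10 had at least 1 FPKM in at least 4 libraries and so were among the 12319 genes tested. FPKM is fragments per kilobase of gene, here scaled between libraries by a median-of-ratios size factor rather than by total reads. The RNA came from 16 end-stage subcutaneous melanomas, 4 in each of 4 groups. The tumours grew from B16F10, a mouse melanoma line, in C57BL/6J hosts of both sexes aged 8 weeks. BdP cisplatin and BdP PBS tumours grew from a B16F10 derivative that the labels call Pros1-deficient in one field and a Pros1 knockdown in another, and WT cisplatin and WT PBS tumours from wild-type B16F10. Pros1 encodes protein S, which limits blood clotting and activates the receptor kinases Tyro3 and Mertk. The genotype is that of the implanted cells, so host cells inside a BdP tumour were of the host's own genotype, and whether BdP is 1 clone is not given in the sources used here. Cisplatin, a platinum drug that crosslinks DNA, was injected into the peritoneum once a day (5 mg/kg) for 3 days in each of 2 rounds, beginning 8 days after implantation, and PBS on the same schedule. Tumours were disaggregated before lysis, in all groups.

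Immediate early genes are switched on within minutes of a growth factor, cytokine or stress signal without new protein synthesis, mainly through MAP kinases that act on SRF with its ternary complex factors, on CREB and ATF proteins and on Jun itself. AP-1 is a dimer of a Jun protein with a Fos, Jun or ATF protein and binds short TGA-rich sites near genes of proliferation, invasion and inflammation. Tumour cells and infiltrating leukocytes both use these genes, and tissue handling is a known trigger of them.

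Promoter sequences were available from RefSeq (GRCm38.p6) for 8 of the 10 genes. Egr1 and Ier2 had no entry. The 150 bases before the RefSeq start are printed for Fos, Fosb and Jun, because these genes had groups without overlapping values in at least 1 comparison below, and for Klf6, because it carries the same site as Jun. Jund also had such groups, but its RefSeq start lay 1210 bases from the gene start in the deposited table, and its window is not printed. Capitals mark matches to the motifs searched, and each sequence is written 5′ to 3′ on the strand of its gene. The windows are chr12:85473740-85473889 on the plus strand for Fos, chr7:19310046-19310195 on the minus strand for Fosb, chr4:95052223-95052372 on the minus strand for Jun and chr13:5861339-5861488 on the plus strand for Klf6. The RefSeq start lay 0, 6, 0 and 7 bases from the gene start in that table for Fos, Fosb, Jun and Klf6.
Fos: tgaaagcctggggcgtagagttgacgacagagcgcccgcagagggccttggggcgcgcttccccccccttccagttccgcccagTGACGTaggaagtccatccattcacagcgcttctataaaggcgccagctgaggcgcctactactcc
Fosb: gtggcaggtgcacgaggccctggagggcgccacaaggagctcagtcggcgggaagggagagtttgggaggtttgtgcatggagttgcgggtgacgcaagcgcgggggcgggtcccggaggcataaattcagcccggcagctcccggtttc
Jun: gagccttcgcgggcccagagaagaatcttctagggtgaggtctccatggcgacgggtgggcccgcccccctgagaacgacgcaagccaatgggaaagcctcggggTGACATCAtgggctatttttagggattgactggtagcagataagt
Klf6: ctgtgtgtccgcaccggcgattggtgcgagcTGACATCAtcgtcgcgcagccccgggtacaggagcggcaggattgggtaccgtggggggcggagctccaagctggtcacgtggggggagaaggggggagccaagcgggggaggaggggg
Both strands of the 250 bases before each start were searched. TGACATCA, a site known to bind Jun and ATF dimers, stood at -45 to -38 in Jun and at -119 to -112 in Klf6, and 2.93% of 32851 promoters held it. The shorter TGACGT, the core of a CREB and ATF site, stood at -66 to -61 in Fos and, on the opposite strand, at -8 to -3 in Atf3, and 6.47% of promoters held it. The CArG box, the site of SRF, was matched in Zfp36, at -58 to -49, and in 1.47% of promoters. The RefSeq start of Atf3 lay 34706 bases and that of Zfp36 1025 bases from the deposited gene start, so their positions refer to another start than that of the table. The full palindrome TGACGTCA (1.55% of promoters) and the AP-1 site TGANTCA (6.75% of promoters) were in none of the 8 windows. TGACGT lies within TGACGTCA, and no other pair of these motifs contains one another.

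Between 10051843 and 27055771 reads per library were assigned to genes. WT PBS 1 stood apart, since 76.9% of its reads came from mitochondrial transcripts, which left 2322202 other reads. Mitochondrial transcripts took 12.2% and 21.7% of reads in WT cisplatin 3 and 4, against 2.03% to 5.06% in the other 13 libraries. All 10 genes had their lowest level of the 16 libraries in WT PBS 1. Their comparisons that involve WT PBS are therefore given with and without it. Fold changes of genes outside the 10 include WT PBS 1 unless stated otherwise. Pros1 averaged 2.21 ± 0.34 FPKM in BdP cisplatin, 1.5 ± 0.18 in BdP PBS, 10.3 ± 1.7 in WT cisplatin and 6.47 ± 2.2 in WT PBS tumours (SD, n = 4 each). It was lower in BdP under PBS (log2 fold change of FPKM + 1 of -1.54 ± 0.17, moderated standard error, adjusted p = 0.00092 by limma over all tested genes) and under cisplatin (-1.80 ± 0.17, adjusted p = 0.000103). The summed FPKM of 7 melanoma and melanocyte markers was between 4648 and 8596 in every library, while muscle and keratinocyte markers summed to at most 2.34 FPKM.

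Among the Jun subunits, which can pair with each other or with Fos proteins, Jun itself was the most abundant. Jun (chr4:95049034-95052222) had 128, 169, 149 and 172 FPKM in BdP cisplatin tumours, 288, 192, 203 and 278 in BdP PBS, 148, 146, 158 and 150.4 in WT cisplatin, and 21.0, 165, 155 and 181 in WT PBS. All 4 BdP PBS values lay above all other 12 libraries. The share of tested genes with this or a similar pattern across several groups was not counted, here or for the genes below. Jund (chr8:70698949-70700616), the subunit known for steadier expression, had 44.1, 77.4, 61.4 and 55.1 FPKM in BdP cisplatin, 70.3, 98.8, 77.7 and 85.8 in BdP PBS, 49.7, 61.5, 69.8 and 51.2 in WT cisplatin, and 21.8, 50.1, 50.2 and 55.1 in WT PBS. The BdP PBS values again lay above every WT library, but BdP cisplatin 2 fell inside their range. Junb (chr8:84974484-84978718) was scattered within groups, with 57.0, 108, 109.8 and 71.6 FPKM in BdP cisplatin, 149.7, 167, 64.8 and 91.9 in BdP PBS, 29.7, 47.1, 119 and 73.0 in WT cisplatin, and 9.12, 63.8, 97.7 and 52.0 in WT PBS. Its groups all overlapped. Junb overlaps Prdx2 on the opposite strand, which reached 177 FPKM, and whether the counting used strand is not given in the sources used here, so reads from the shared stretch cannot be told apart.

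The Fos proteins cannot pair with themselves and need a Jun partner. Fos (chr12:85473890-85477273) was the most abundant of the 10 genes in every group, with 328, 336, 356 and 364 FPKM in BdP cisplatin, 422, 396, 327 and 500.0 in BdP PBS, 199, 297, 261 and 259 in WT cisplatin, and 37.9, 317, 385 and 309 in WT PBS. Every BdP library lay above every WT cisplatin library. Fosb (chr7:19302696-19310051) had 39.2, 36.0, 49.3 and 55.5 FPKM in BdP cisplatin, 159, 70.1, 84.2 and 128 in BdP PBS, 37.6, 53.7, 54.7 and 68.3 in WT cisplatin, and 1.72, 87.9, 89.6 and 48.4 in WT PBS. BdP PBS lay above all 8 cisplatin-treated libraries of both genotypes, and WT PBS 2 and 3 reached into its range. Atf3 (chr1:191170296-191218039), a stress-induced ATF protein that pairs with Jun proteins, had 55.7, 35.9, 91.3 and 77.4 FPKM in BdP cisplatin, 148, 80.7, 93.9 and 101 in BdP PBS, 51.8, 58.6, 81.4 and 97.8 in WT cisplatin, and 17.4, 80.4, 81.0 and 87.1 in WT PBS, with overlap among all groups.

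The other 4 genes are not AP-1 subunits. Egr1, a zinc finger transcription factor induced through SRF, was the least abundant of the 10 in every group and had the largest coefficient of variation over the 16 libraries, 67.5%. It had 26.8, 19.3, 55.6 and 28.7 FPKM in BdP cisplatin, 90.5, 54.8, 29.6 and 39.0 in BdP PBS, 6.65, 19.8, 29.1 and 30.3 in WT cisplatin, and 4.34, 26.7, 50.8 and 8.79 in WT PBS. Even without WT PBS 1, its highest library was 13.6 times its lowest, against 2.20 times for Klf6 (chr13:5861482-5870394), a Krüppel-like zinc finger factor. Klf6 had 60.1, 65.5, 78.7 and 62.8 FPKM in BdP cisplatin, 125, 83.1, 73.1 and 92.2 in BdP PBS, 69.0, 62.4, 81.8 and 83.9 in WT cisplatin, and 20.6, 56.5, 66.7 and 80.0 in WT PBS. Ier2 (chr8:84661331-84662852), a nuclear protein of the early response, was similarly even, with 29.6, 49.8, 50.9 and 37.8 FPKM in BdP cisplatin, 70.1, 77.2, 44.3 and 45.5 in BdP PBS, 43.1, 43.7, 53.2 and 42.1 in WT cisplatin, and 19.2, 43.8, 52.7 and 53.0 in WT PBS. Zfp36 (chr7:28376784-28380253) encodes tristetraprolin, which binds AU-rich messages such as that of TNF and speeds their decay. Zfp36 had 42.6, 66.8, 78.1 and 53.9 FPKM in BdP cisplatin, 102.1, 102.4, 35.2 and 51.4 in BdP PBS, 14.7, 28.8, 58.5 and 49.6 in WT cisplatin, and 7.67, 38.7, 70.3 and 17.9 in WT PBS. Groups overlapped for Egr1, Klf6, Ier2 and Zfp36 in every comparison.

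**Figure D1:**
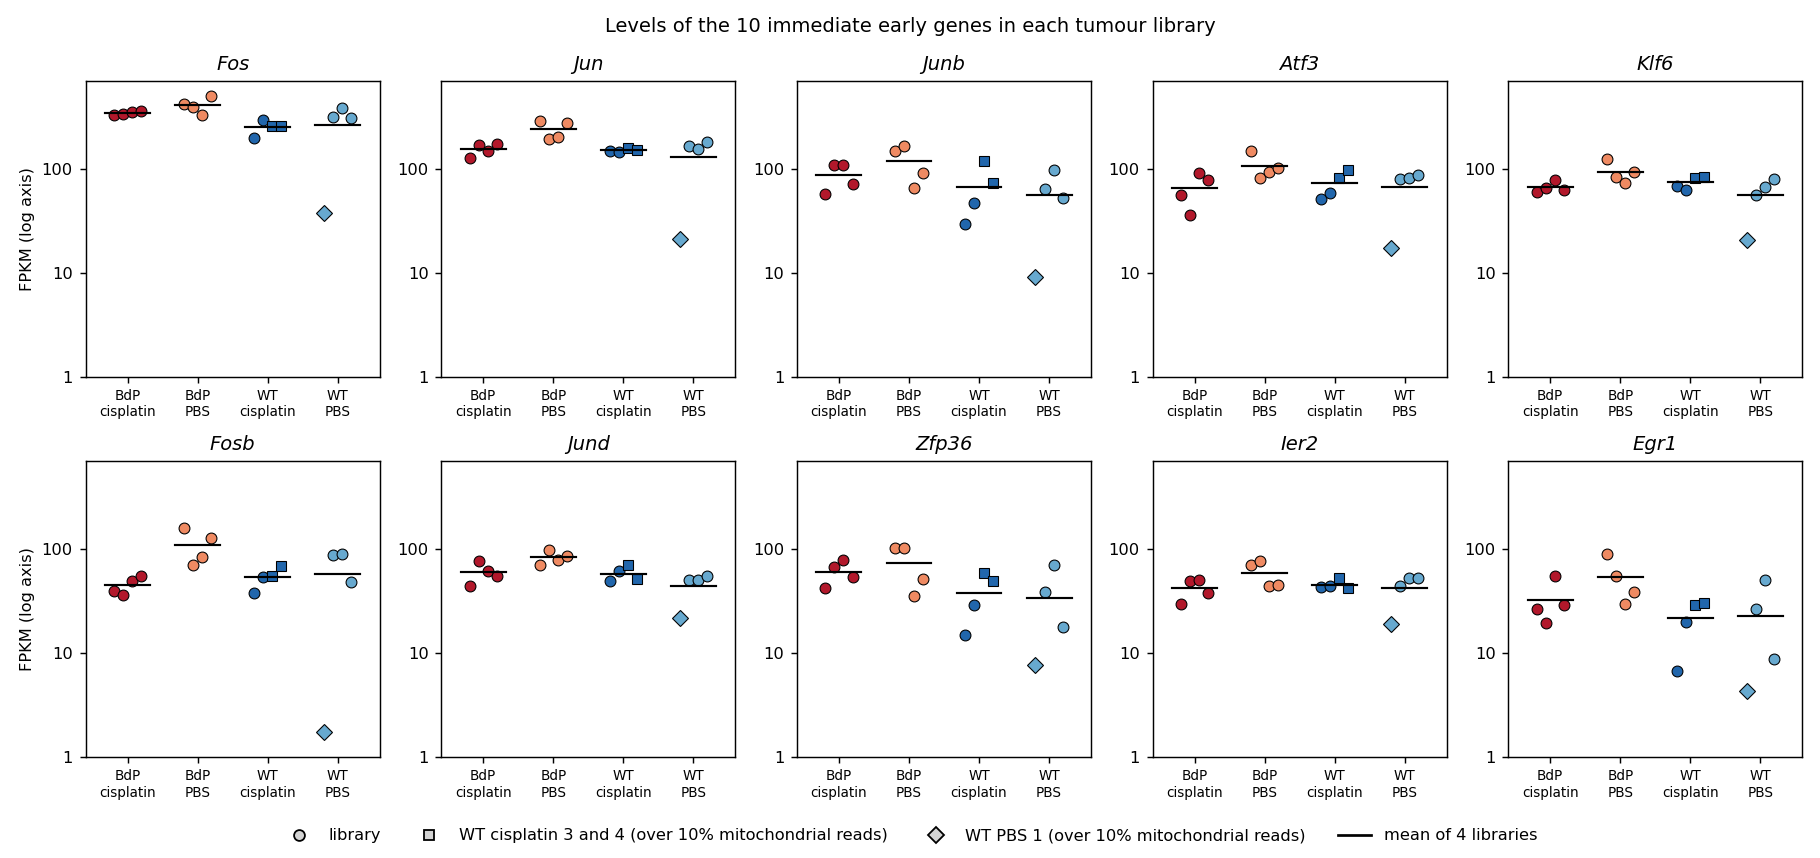
FPKM of the 10 genes on a log axis, 1 point per library and 1 column per group, with a black bar at the mean of 4 libraries. Diamonds mark WT PBS 1 and squares WT cisplatin 3 and 4, the libraries with over 10% mitochondrial reads. WT PBS 1 is the lowest point in every panel, and the BdP PBS points of Jun lie above all others.

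FPKM is scaled to gene length, so levels can be ordered between genes. By group mean, Fos was the most abundant, Jun the next and Egr1 the least abundant in all 4 groups. The values of Fos and Jun, and those of Jun and the third gene, did not overlap in BdP cisplatin, BdP PBS and WT cisplatin tumours. In WT PBS they overlapped once WT PBS 1 was counted. From the third to the tenth place, the values of each gene overlapped those of the next in every group, so the order of neighbours is not resolved. Genes farther apart could separate, as Klf6 (62.4 to 83.9 FPKM) and Egr1 (6.65 to 30.3 FPKM) did in WT cisplatin tumours. Fosb moved most in place, being the fourth in BdP PBS with 110.4 ± 40.7 FPKM and the eighth in BdP cisplatin with 45.0 ± 9.0 FPKM (SD, n = 4).

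Under PBS, all 10 genes had higher mean levels in BdP than in WT tumours, and none passed the test. Log2 fold changes of FPKM + 1 ran from 0.54 for Ier2 to 1.71 for Fosb, with a median of 1.14 against 0.01 over all tested genes. Jun averaged 240.2 ± 49.9 FPKM in BdP PBS tumours and 130.7 ± 73.9 in WT PBS tumours, and Jund 83.2 ± 12.2 in BdP PBS and 44.3 ± 15.2 in WT PBS (SD, n = 4). None of the 10 was called by limma at a Benjamini-Hochberg adjusted p below 0.05, at which 0.99% of all tested genes were called. At an unadjusted p below 0.05, 6 of the 10 were higher (Jun, Junb, Jund, Egr1, Klf6 and Zfp36), against 9.71% of all tested genes. Adjusted p ran from 0.0845 for Jund (log2 fold change 0.97 ± 0.25) to 0.310 for Ier2.

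Jun and Jund were the genes whose 4 BdP PBS libraries all lay above all 4 WT PBS libraries, as did 3.36% of tested genes. The exact two-sided permutation test gave p = 0.0286 for each, the smallest that 70 assignments of 4 against 4 allow, without adjustment over the 40 such tests made. A large part of these fold changes came with WT PBS 1. Without it, the fold changes were still positive for 10 of 10 genes but ran from 0.21 to 1.05 with a median of 0.51. At an unadjusted p below 0.05 by limma, 3 of the 10 were then higher (Jun, Jund and Klf6). In that fit 846 of the 12257 genes tested were higher at that p. The Fosb difference was then 0.52 ± 0.30 and that of Fos 0.28 ± 0.15, with adjusted p = 0.431 and 0.428 by limma. Jund moved least when WT PBS 1 was left out, with 83.2 ± 12.2 FPKM in BdP PBS and 51.8 ± 2.8 in the 3 other WT PBS tumours, a log2 fold change of 0.66 ± 0.17 (adjusted p = 0.105). Jun averaged 167 ± 13.2 FPKM in those 3 tumours, and its log2 fold change was 0.50 ± 0.15 (adjusted p = 0.155). Both still had no overlap between the groups, as had 4.7% of tested genes, with an exact permutation p of 0.0286 for Jund and 0.0857 for Jun over 35 assignments. WT PBS 1 held few reads of some members, with 21 for Fosb, 38 for Egr1 and 41 for Junb, against at least 753 reads of any member in any other library.

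Under cisplatin, the 10 genes did not share a direction between the genotypes. Fold changes of BdP over WT were positive for 6 genes and negative for 4, from -0.24 for Fosb to 0.80 for Zfp36, with a median of 0.02. Fos averaged 346 ± 16.5 FPKM in BdP cisplatin tumours and 254 ± 40.6 in WT cisplatin tumours (SD, n = 4), and its groups did not overlap, as was so for 6.41% of tested genes in the direction higher in BdP. Its exact two-sided permutation p was 0.0286, again the smallest possible, while limma gave a log2 fold change of 0.46 ± 0.52 (adjusted p = 0.744). That standard error takes in the spread of Fos in all 4 groups. With WT PBS 1 left out of the fit it was 0.14, and the adjusted p was 0.124. None of the 10 genes was called, against 1.07% of tested genes.

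Zfp36 averaged 60.4 ± 15.5 FPKM in BdP cisplatin and 37.9 ± 19.8 in WT cisplatin tumours, Egr1 32.6 ± 15.9 in BdP and 21.5 ± 11 in WT, and Junb 86.5 ± 26.4 in BdP and 67.3 ± 38.9 in WT (SD, n = 4). For all 3 genes the WT cisplatin libraries 3 and 4, which were rich in mitochondrial reads, were higher than WT cisplatin 1 and 2. Without these 2 libraries and WT PBS 1, fold changes reached 1.47 ± 0.54 for Zfp36 (adjusted p = 0.301), 1.31 ± 0.65 for Egr1 (adjusted p = 0.399) and 1.13 ± 0.40 for Junb (adjusted p = 0.289), and 8 of the 10 genes were then positive. The means of Jun and Jund were close under cisplatin, with 154.5 ± 20.4 FPKM of Jun in BdP and 150.5 ± 5.6 in WT, and 59.5 ± 13.9 FPKM of Jund in BdP and 58.0 ± 9.4 in WT. Their log2 fold changes were 0.03 ± 0.49 and 0.02 ± 0.25.

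Within BdP tumours, all 10 genes had lower mean levels with cisplatin than with PBS. Fosb averaged 45.0 ± 9.0 FPKM in BdP cisplatin and 110.4 ± 40.7 in BdP PBS tumours, and Jun 154.5 ± 20.4 in BdP cisplatin and 240.2 ± 49.9 in BdP PBS (SD, n = 4). Log2 fold changes ran from -1.22 for Fosb to -0.16 for Zfp36, with a median of -0.49 against -0.0028 over all tested genes. For Fosb and Jun all 4 cisplatin libraries lay below all 4 PBS libraries, as did 1.94% of tested genes, with an exact two-sided permutation p of 0.0286 each. Jund, Atf3 and Klf6 followed with an exact p of 0.0571.

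By limma none of the 10 was called, and 0% of all tested genes were called in this comparison, where 542 genes had an unadjusted p below 0.05 and limma-voom on recovered reads also called 0. At an unadjusted p below 0.05, 2.24% of tested genes were lower with cisplatin and none of the 10 was among them, with a smallest p of 0.0668 for Jund. The shared error again took in WT PBS 1, which is in neither group. With that library out of the fit the fold changes stayed as they were and 6 of the 10 were lower at an unadjusted p below 0.05, against 3.2% of the 12257 genes tested in that fit. The standard error of Fosb was then 0.27 in place of 0.80 and that of Jun 0.14 in place of 0.49, with adjusted p = 0.455 for both. Zfp36 was the exception in size, with 60.4 ± 15.5 FPKM in BdP cisplatin and 72.8 ± 34.7 in BdP PBS tumours, and its fold change was 0.04 when BdP PBS 1 or BdP PBS 2 was left out in turn.

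**Figure D2:**
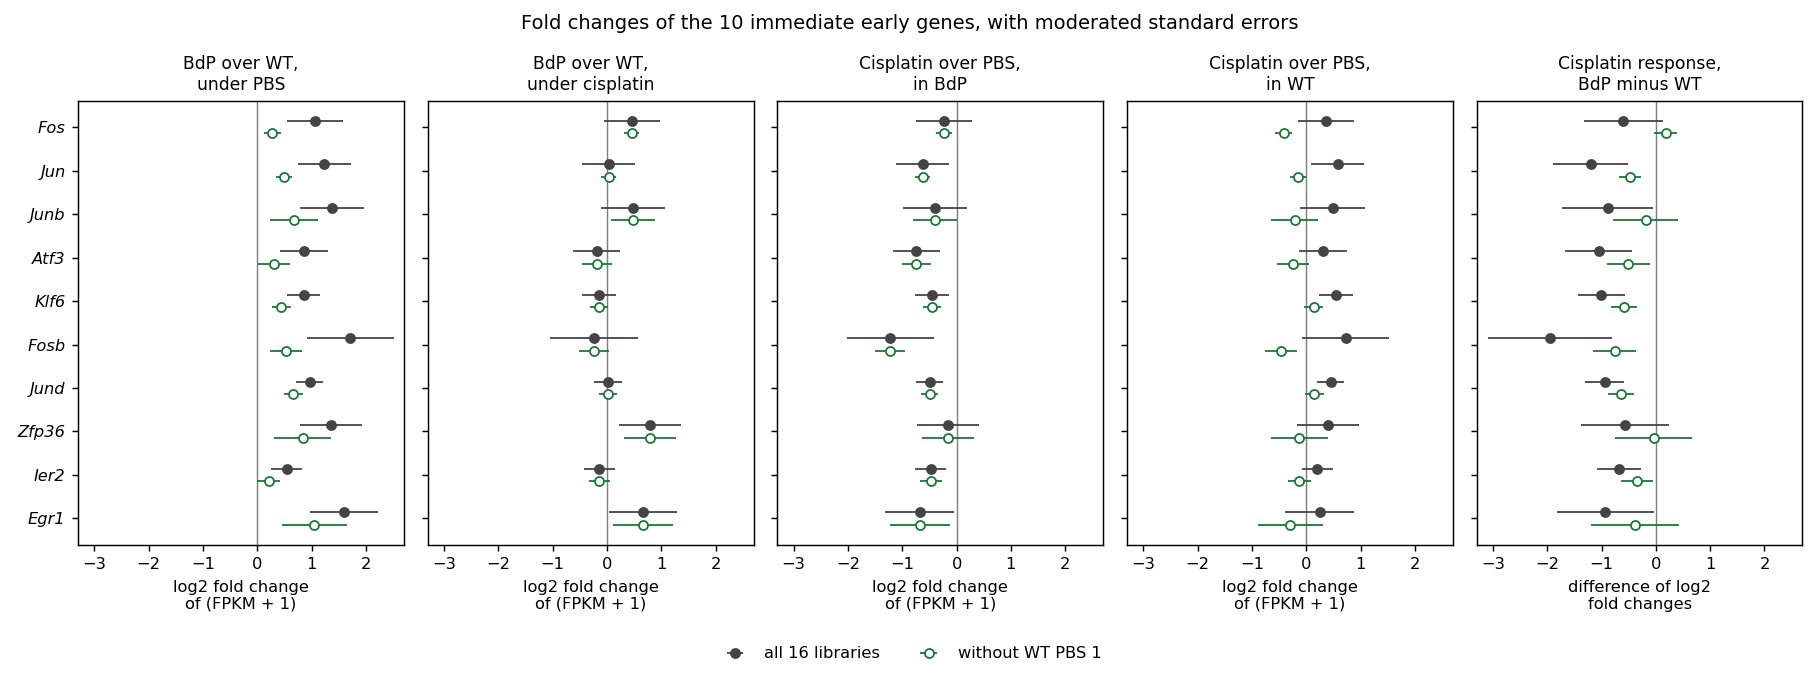
Log2 fold changes of FPKM + 1 with moderated standard errors for the 10 genes in the 5 comparisons, filled for all 16 libraries and open without WT PBS 1. Under PBS all open points stay right of 0 but closer to it, within BdP the points do not move and only the errors shrink, and within WT 8 of the 10 cross 0.

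Within WT tumours, the sign of the cisplatin difference depended on WT PBS 1. With it, 10 of 10 genes had positive log2 fold changes, from 0.20 for Ier2 to 0.73 for Fosb with a median of 0.43. Without it, 8 of 10 were negative, from -0.46 for Fosb to 0.15 for Jund, with a median of -0.18, and without all 3 libraries rich in mitochondrial reads 9 of 10 were negative with a median of -0.52. Fos averaged 254 ± 40.6 FPKM in WT cisplatin tumours and 262 ± 154 in WT PBS tumours, or 337 ± 42.0 in the 3 WT PBS tumours other than the first. None of the 10 was called with all libraries (adjusted p between 0.659 and 0.914 by limma), and 0.00812% of tested genes were, which is 1 gene. Without WT PBS 1, 1 of the 10, Fos, was lower at an unadjusted p below 0.05 (log2 fold change -0.41 ± 0.15, adjusted p = 0.856 by limma), against 2.21% of tested genes. Its groups did not overlap, as was so for 2.35% of genes in that direction, and the exact permutation p was 0.0571.

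The cisplatin response was compared between the genotypes as an interaction, the log2 fold change in BdP minus that in WT. It was negative for all 10 genes, from -1.95 ± 1.14 for Fosb to -0.57 ± 0.81 for Zfp36, with a median of -0.94. None of the 10 was called (adjusted p between 0.835 and 0.925 by limma), as was 0% of tested genes. At an unadjusted p below 0.05 there were 2 of the 10, Jund (-0.95 ± 0.35) and Klf6 (-1.0 ± 0.44), both negative as were 3.18% of tested genes at that p. In either direction 691 of all tested genes reached it, and limma-voom on recovered reads called 1 gene, which was none of the 10. Without WT PBS 1 the median was -0.43, 9 of 10 were negative, and Jund kept -0.64 ± 0.24 (adjusted p = 0.871). Without the 3 libraries rich in mitochondrial reads, 6 of 10 were negative, and Zfp36, Junb, Egr1 and Fos were positive. This comparison shares its groups with those above and is not further support for them.

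**Figure D3:**
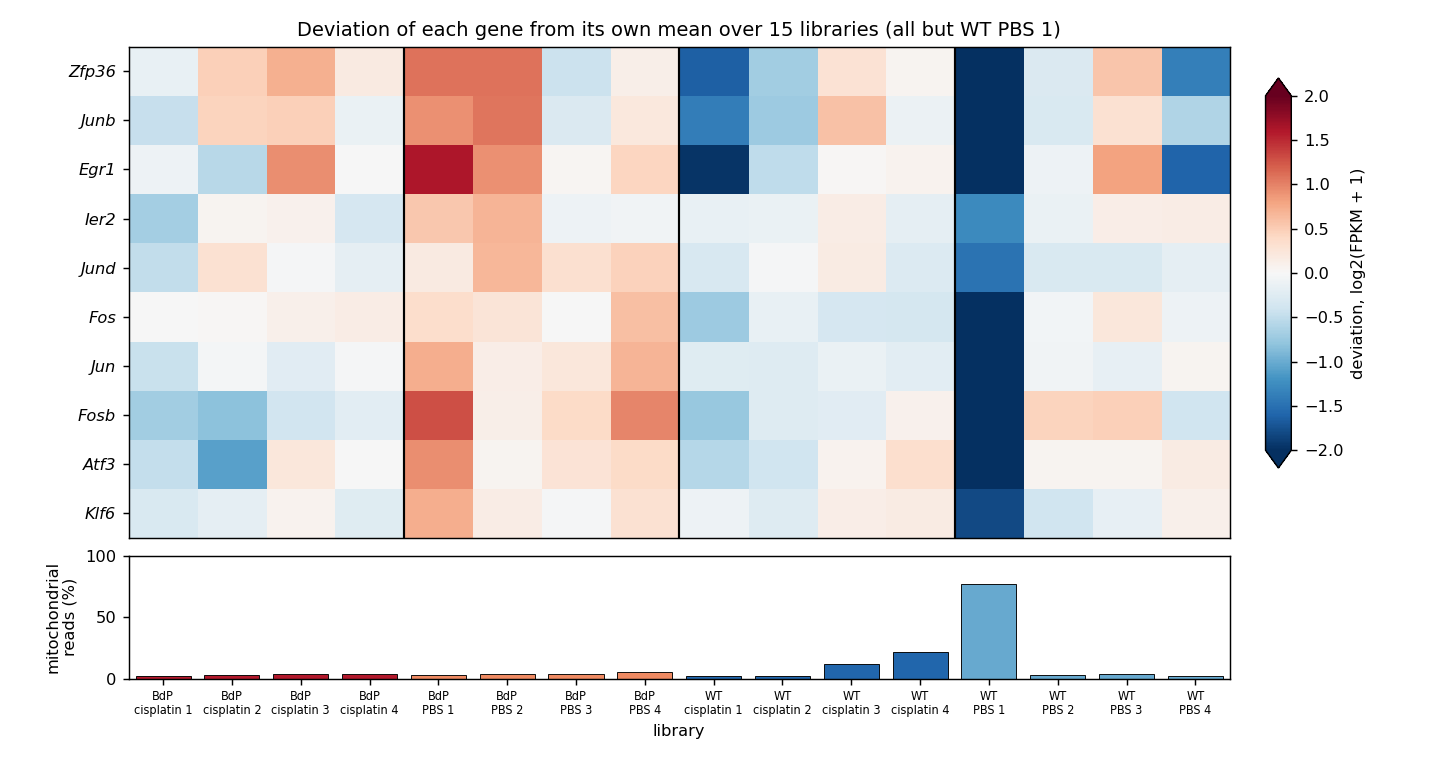
Deviation of log2(FPKM + 1) of each gene from its own mean over the 15 libraries other than WT PBS 1 (colours end at 2 in either direction), with the percentage of mitochondrial reads of each library as bars. WT PBS 1 is low for every gene, BdP PBS 1 is the highest library for 5 genes and BdP PBS 2 for 4, and the upper 3 rows (Zfp36, Junb and Egr1) vary together.

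The 10 genes varied together to unequal degrees. Over the 15 libraries other than WT PBS 1, Pearson's r of log2 levels was 0.94 between Junb and Zfp36, 0.91 between Egr1 and Zfp36 and 0.82 between Junb and Egr1. Fosb, Atf3, Jun and Klf6 were more loosely tied, with r from 0.59 (Fosb with Klf6) to 0.81 (Fosb with Atf3). Pairs with 1 gene from each of these sets ran from 0.32 (Jun with Zfp36) to 0.67 (Fosb with Egr1), which overlaps the range within the second set. Over all 16 libraries which include the low WT PBS 1, every pair had r of at least 0.63, and the pair Jun and Zfp36 had 0.68. These values describe the libraries, which share the group differences, and carry no test.

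BdP PBS 1 was the highest library for Fosb, Jun, Egr1, Atf3 and Klf6, and BdP PBS 2 for Junb, Jund, Ier2 and Zfp36. Fos was highest in BdP PBS 4. BdP PBS 3 was the lowest of its group for Fos, Junb, Egr1, Klf6, Ier2 and Zfp36. The mean of log2(FPKM + 1) over the 10 genes was 7.12, 6.79, 6.32 and 6.69 in BdP PBS 1 to 4, against 3.75, 6.16, 6.47 and 5.90 in WT PBS 1 to 4, so WT PBS 3 lay above BdP PBS 3. In the cisplatin groups it was 5.90, 6.14, 6.48 and 6.20 in BdP and 5.50, 5.94, 6.35 and 6.24 in WT.

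Zfp36, Junb and Egr1 moved with leukocyte markers. The summed FPKM of 6 T cell markers (Cd3d, Cd3e, Cd3g, Trac, Cd8a and Cd4) was 8.35, 67.5, 85.7 and 29.0 in BdP cisplatin, 52.4, 133, 7.66 and 26.5 in BdP PBS, 1.15, 3.19, 38.2 and 5.46 in WT cisplatin, and 7.01, 8.95, 50.6 and 0.12 in WT PBS. Over the 16 libraries, log2 Zfp36 correlated with the log2 of that sum with r = 0.81 (permutation p = 0.0001, adjusted p = 0.004) and Spearman's rho = 0.92 (permutation p = 1e-05, the smallest that 100000 permutations can give, adjusted p = 0.0002). The adjustment covers 40 relations, of the 10 genes with 4 marker lists. The permutations ran over all 16 libraries, so their p-values take in differences between the groups. Without the 2 libraries farthest from the median of the marker sum r was 0.76, without WT PBS 1 it was 0.94, without the 3 libraries rich in mitochondrial reads 0.96, and for deviations from group means 0.74.

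Junb had r = 0.68 (permutation p = 0.00227, adjusted p = 0.013) and rho = 0.87 with T cell markers (permutation p = 4e-05, adjusted p = 0.0004), and r = 0.69 without the 2 farthest libraries and 0.59 for deviations from group means. With the 4 B cell markers, Junb had r = 0.73 and Zfp36 r = 0.75 (adjusted permutation p = 0.0076 for both), with rho = 0.90 and 0.87. Egr1 was tied more closely to the 6 macrophage markers, with r = 0.78 (permutation p = 0.0005, adjusted p = 0.0076) and rho = 0.80 (permutation p = 0.00033, adjusted p = 0.0026), and r = 0.65 without the 2 farthest libraries, 0.90 without WT PBS 1 and 0.82 for deviations from group means. Egr1 also correlated with T cell markers (r = 0.73, adjusted permutation p = 0.0093, rho = 0.67).

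Of the other genes, Jund alone passed by r, with B cell markers (r = 0.68, permutation p = 0.00173, adjusted p = 0.012, rho = 0.71). Its r was 0.57 without the 2 farthest libraries and 0.50 for deviations from group means. Jun, Fosb, Atf3 and Klf6 had r with T cell markers between 0.20 and 0.26 (adjusted permutation p at least 0.550), and without WT PBS 1 between 0.15 and 0.28. For Fos, rho but not r passed, with T cell (rho = 0.71), B cell (0.63) and macrophage markers (0.60, adjusted permutation p = 0.046). For deviations from group means, r of Fos was 0.12, 0.16 and 0.20 with these lists. Fosb likewise passed by rho with macrophage markers (rho = 0.69, permutation p = 0.00334, adjusted p = 0.017). Its r there was 0.36 over 16 libraries, 0.65 without WT PBS 1 and 0.32 for deviations from group means. By rho alone, Zfp36 and Junb also passed with macrophage markers (0.68 and 0.61) and Egr1 with B cell markers (0.63). None of the 10 genes passed with the 5 neutrophil markers. All 6 T cell and all 6 macrophage markers reached 1 FPKM in some library of every group, as did the 4 B cell markers except in WT PBS, where 2 of 4 did. The B cell sum ran from 1.58 to 328 FPKM in BdP cisplatin, from 6.25 to 394 in BdP PBS, from 2.29 to 81.2 in WT cisplatin and from 0.97 to 8.29 in WT PBS tumours. The macrophage sum ran from 54.4 to 527 FPKM in BdP cisplatin, from 197 to 695 in BdP PBS, from 47.6 to 210.0 in WT cisplatin and from 41.9 to 688 in WT PBS tumours. In these bulk samples more cells of a type and more RNA per cell cannot be told apart, and the part of leukocyte content in the differences between groups was not tested.

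**Figure D4:**
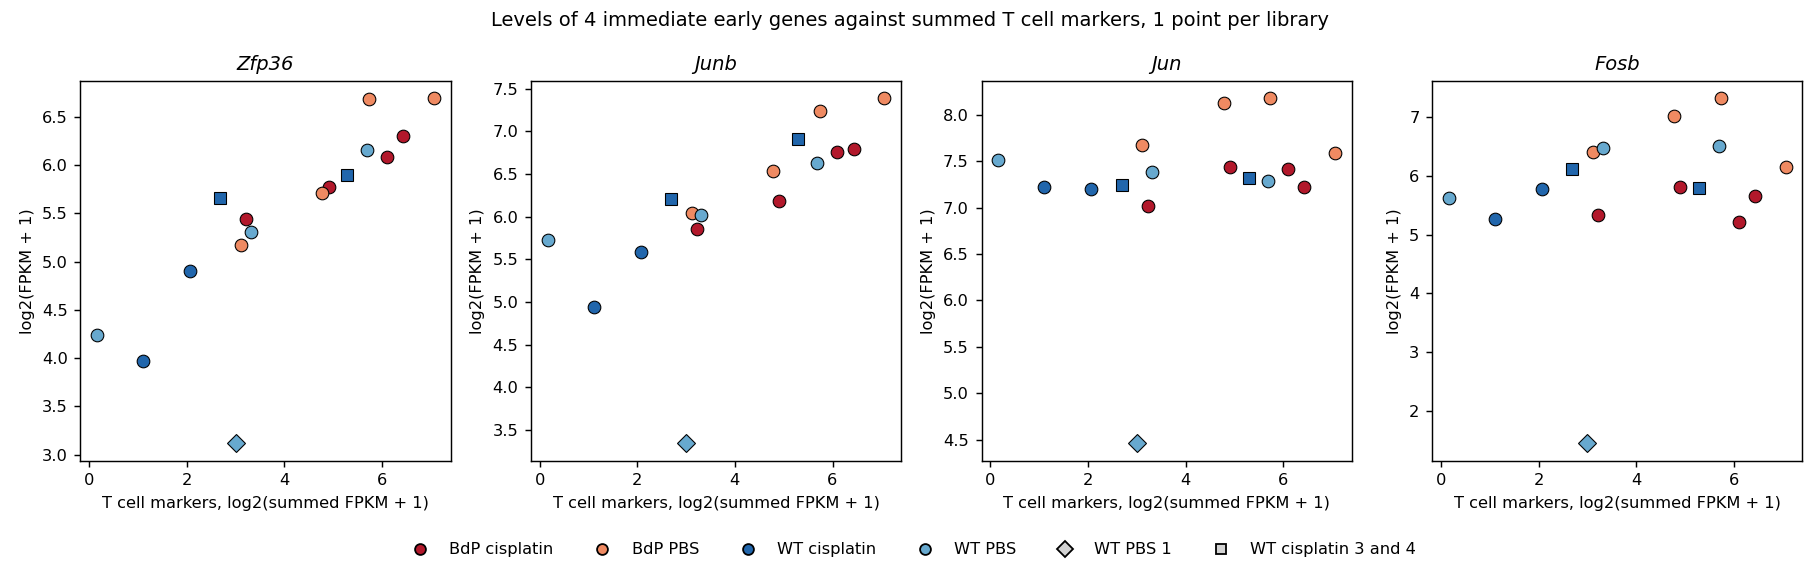
Log2(FPKM + 1) of Zfp36, Junb, Jun and Fosb against the log2 of the summed FPKM of 6 T cell markers + 1, 1 point per library, coloured by group, with a diamond for WT PBS 1 and squares for WT cisplatin 3 and 4. Zfp36 and Junb climb with the marker sum apart from WT PBS 1 (r = 0.94 and 0.89 without it), while r without it is 0.27 for Jun and 0.28 for Fosb.

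Of 8 further genes of the AP-1 family, all tested, none was called in any comparison, and 5 had positive fold changes of BdP over WT under PBS, with a median of 0.05. Batf, a leukocyte AP-1 partner, had the smallest p among them (log2 fold change 0.75 ± 0.36, adjusted p = 0.271 by limma), followed by Fosl1 (0.47 ± 0.29, adjusted p = 0.377), which averaged 1.13 ± 0.72 FPKM in BdP PBS and 0.55 ± 0.60 in WT PBS tumours. Without WT PBS 1 the fold changes were 0.51 for Batf and 0.28 for Fosl1. Fosl2, the Fos protein Fra-2, averaged 9.67 ± 4.4 FPKM in BdP PBS and 9.35 ± 2.3 in WT PBS. Of 15 upstream kinases and factors (MAP kinases, SRF, its cofactors and CREB), none was called and 5 were positive, with a median of -0.05. The smallest p was that of Map2k4, the kinase MKK4 upstream of JNK (-0.19 ± 0.08, adjusted p = 0.203).

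Other immediate early genes had mostly positive fold changes in the same comparison. Of 37 listed, 35 were tested, and 32 had positive fold changes of BdP over WT under PBS, with a median of 0.80, or 0.43 without WT PBS 1, and none was called. Klf2, a factor of quiescent T cells and endothelium, had 1.78 ± 0.57 (adjusted p = 0.142), and Btg2, an antiproliferative gene, 1.09 ± 0.38 (adjusted p = 0.160). Ppp1r15a, which encodes the stress phosphatase subunit GADD34, and Gadd45b followed with 1.04 ± 0.37 and 1.02 ± 0.37. Without WT PBS 1 the fold changes were 1.14 for Klf2, 0.67 for Btg2, 0.59 for Ppp1r15a and 0.76 for Gadd45b. Within BdP tumours, 32 of the 35 were negative with cisplatin against PBS, with a median of -0.36 and none called. Nr4a3, an orphan nuclear receptor, had the smallest p there (-0.84 ± 0.23, adjusted p = 1).

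In BdP against WT under cisplatin 1 of the 35 was called, Cyr61 (now Ccn1), a matrix protein and YAP target. It had 44.7, 58.3, 79.7 and 71.8 FPKM in BdP cisplatin and 148, 109.9, 192 and 159.7 in WT cisplatin tumours. Its log2 fold change was -1.25 ± 0.25 (adjusted p = 0.0267 by limma). Without any 1 of BdP cisplatin 1, 2 and 4 or WT cisplatin 1, 3 and 4 the call was lost, with adjusted p between 0.0599 and 0.107, and without the 3 libraries rich in mitochondrial reads it was 0.231. With TPM scaling it was 1.00, with scaling over non-mitochondrial genes 0.418 and without a filter on low values 0.0588. Myc, with the next smallest p, was not called with all libraries (-0.84 ± 0.20, adjusted p = 0.0584 by limma). With WT PBS 1 left out of the fit its adjusted p was 0.0362.

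Of the 9 feedback inhibitors and ERK-responsive genes, 7 were negative under PBS in BdP against WT, opposite in sign to the 10 genes, with a median of -0.47, or -0.30 without WT PBS 1. Etv4, an ETS factor that follows ERK activity, was the 1 gene called. It was low in all groups, with 0.32, 0.20, 0.41 and 0.67 FPKM in BdP PBS and 2.14, 2.64, 2.31 and 3.37 in WT PBS tumours. Its log2 fold change was -1.36 ± 0.16 under PBS (adjusted p = 0.000985) and -0.89 ± 0.16 under cisplatin (adjusted p = 0.0165), where it averaged 0.50 ± 0.09 FPKM in BdP and 1.83 ± 0.62 in WT (SD, n = 4). The call under PBS held without each library in turn but not with TPM scaling (adjusted p = 0.268), scaling over non-mitochondrial genes (0.192) or a fit of the 2 groups alone (0.0807), and that under cisplatin was lost without BdP cisplatin 2 or 4 or WT cisplatin 1 or 3 (adjusted p between 0.0553 and 0.0638), without the 3 libraries rich in mitochondrial reads (0.120), with TPM scaling (0.830) and with scaling over non-mitochondrial genes (0.351). Etv5 (-0.66 ± 0.22, adjusted p = 0.151), Spred2 (-0.47 ± 0.16, adjusted p = 0.158) and Spry4 (-0.52 ± 0.20, adjusted p = 0.191), all tied to ERK signalling, did not pass under PBS.

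The genes whose levels most resembled the mean of the 10 over the 16 libraries, by Pearson's r of log2 values among protein-coding genes outside the 10, were Rgs2 (r = 0.97), Mkl1 (0.97), Csrnp1 (0.94), Scmh1 (0.94), Myh9 (0.94), Atp2b1 (0.94), Nbeal2 (0.94) and Abi1 (0.92). Rgs2 is a regulator of G protein signalling and Mkl1 a coactivator of SRF. Rgs2 averaged 14.5 ± 4.7 FPKM in BdP cisplatin, 21.7 ± 10.0 in BdP PBS, 12.7 ± 5.3 in WT cisplatin and 9.99 ± 7.6 in WT PBS tumours (SD, n = 4). Much of this likeness rests on WT PBS 1. Without it r was 0.91 for Rgs2 and 0.90 for Mkl1, the first and the fifth of all such genes, while Abi1 dropped to 0.70. The heat shock gene Hspa1a, with r = 0.82 over 16 libraries, was then the third with r = 0.91.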

How the data were processed

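Whole-tumour RNA of 16 tumours was profiled by RNA sequencing, 4 libraries in each of 4 groups. Per the labels' protocols, tumours were disaggregated and lysed, RNA was taken with an RNeasy kit and libraries were made with a NEBNext Ultra kit. The submitters' processing notes name CASAVA, HISAT2 2.0.5, featureCounts 1.5.0-p3 and the builds GRCm38 and mm10, without settings. The authors deposited FPKM per gene, with gene lengths, positions and symbols per the file headers. FPKM times length was a whole multiple of 1 step within 0.1 read for 100% of values, and the divisor equalled a median-of-ratios size factor (ratio 1), so values were already scaled between libraries. Recovered reads per library were 10051843 to 27055771, and 4 libraries per group limit the precision.

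The fit used log2(FPKM + 1) of 12319 genes that reached 1 FPKM in 4 or more of the 16 libraries, with 1 mean per group and a trended empirical Bayes prior (limma 3.58.1 in R 4.3.3). Fold changes understate those of low genes. Calls required p below 0.05 after Benjamini-Hochberg adjustment across the tested genes. The ± after a fold change is the moderated standard error, after FPKM the SD. Single genes were compared by exact two-sided permutation tests (Python 3.11.15), in 40 tests. Relations to markers used 100000 permutations. Nothing says that libraries came from separate mice, so p-values measure the spread between these samples. The procedure was tested on simulated data.

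The 10 genes and the other lists were chosen with earlier results of these data known. From each other list, genes called in any comparison and otherwise up to 4 with the smallest p were named, and the 8 protein-coding genes most correlated with the mean of the 10. Fosl2, Myc, and the heat shock genes beside those 8, were chosen after their values were seen. Alternatives were other pseudocounts, filters and scalings (TPM, scaling over non-mitochondrial genes, quantile), library weights, limma-voom on recovered reads, fits of the 2 groups alone, the replicate number as a block, and fits without each library or without the 3 with over 10% mitochondrial reads.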

Additional observations from a re-analysis of the deposited data

Results flagged for a closer look

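The 40 groups of 4 values (10 genes in 4 groups, on the log2 scale) share the same 16 libraries and are not independent. In 5 of these groups 1 library stood far from the other 3, where chance alone would mark about 1 in 20 independent groups. In 4 of these the library was WT PBS 1, with 37.9 FPKM of Fos, 21.0 of Jun, 21.8 of Jund and 17.4 of Atf3, each far below the other WT PBS libraries. The mean of the other 3 WT PBS libraries was 8.90 times its value for Fos, 7.95 times for Jun, 2.38 times for Jund and 4.77 times for Atf3. The other 6 genes were low in the same library, with 43.7 times for Fosb, but the gap to the next library was a smaller share of the range. WT PBS 1 held 76.9% mitochondrial reads, and the part of this in the low values was not tested. In WT cisplatin 3 Ier2 had 53.2 FPKM, above the 42.1 to 43.7 FPKM of the other WT cisplatin libraries. That library held 12.2% mitochondrial reads.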

How the results depend on the processing

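The 50 fold changes (10 genes in 5 comparisons) were recomputed under up to 28 alternatives each, and 51 of 1390 values changed sign. None of the 10 genes was called under any of them, except Jund under PBS with the replicate number as a block (1 gene called, log2 fold change 0.97, adjusted p = 0.043). Adjusted p over the alternatives ran from 0.043 to 0.689 for BdP against WT under PBS, from 0.0994 to 1 under cisplatin, from 0.344 to 1 for cisplatin in BdP, from 0.279 to 1 in WT and from 0.418 to 1.00 for the interaction. Same-numbered libraries did not deviate together (correlations from -0.613 to 0.415), so the numbers were not taken to pair the samples, and the block with its value rests on the number alone.

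No fold change of BdP over WT under PBS changed sign. Without 1 library in turn, the median over the 10 genes ran from 0.51 to 1.41 for BdP under PBS, from -0.014 to 0.13 for BdP under cisplatin, from -0.63 to -0.38 for cisplatin in BdP, from -0.18 to 0.74 for cisplatin in WT and from -1.18 to -0.43 for the interaction. TPM scaling, which moved the median of all genes by 0.82 under PBS, 0.70 for cisplatin in WT and -0.65 for the interaction, gave member medians of 2.11, 1.27 and -1.70. Scaling over non-mitochondrial genes gave a median of -0.031 for BdP under cisplatin. Library weights gave -0.13 for cisplatin in WT, and leaving out the 3 libraries with over 10% mitochondrial reads gave -0.52 there and -0.22 for the interaction. The cause was not tested.

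For cisplatin in WT, single genes turned negative with library weights (Fos -0.27, Jun -0.019, Junb -0.11, Atf3 -0.14, Fosb -0.42, Zfp36 -0.15, Egr1 -0.39), with limma-voom (Ier2 -0.028, Egr1 -0.13) and without the 3 libraries (Fos -0.46, Jun -0.19, Junb -0.86, Atf3 -0.58, Klf6 -0.030, Fosb -0.68, Zfp36 -0.80, Ier2 -0.19, Egr1 -0.93). Without 1 library in turn the same fold changes ran from -0.41 to 0.69 for Fos, -0.15 to 0.87 for Jun, -0.21 to 0.88 for Junb, -0.24 to 0.52 for Atf3, -0.46 to 1.22 for Fosb, -0.13 to 0.89 for Zfp36, -0.13 to 0.34 for Ier2 and -0.29 to 0.80 for Egr1.

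For BdP under cisplatin, values near 0 changed sign with TPM scaling (Klf6 0.00064, Ier2 0.0076), scaling over non-mitochondrial genes (Jun -0.026, Jund -0.035), library weights (Jund -0.0061) and without the 3 libraries (Atf3 0.15, Klf6 0.017). Without 1 library in turn they ran from -0.38 to 0.063 for Atf3, -0.24 to 0.014 for Ier2, -0.026 to 0.11 for Jun and -0.11 to 0.15 for Jund. The interaction turned positive with library weights for Fos (0.071) and Zfp36 (0.068), without the 3 libraries for Fos (0.23), Junb (0.46), Zfp36 (0.63) and Egr1 (0.25), and ran from -0.93 to 0.18 for Fos without 1 library in turn. For cisplatin in BdP, Zfp36 ran from -0.46 to 0.044. Depth limits mainly WT PBS 1, with 21 reads of Fosb and 38 of Egr1.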

Other observations

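The heat shock genes, which stress and heating switch on through HSF1, varied with the 10 genes in part. In BdP PBS tumours Hspa1b had 132, 117, 40.5 and 60.1 FPKM, against 10.2, 21.9, 48.1 and 18.9 in WT PBS tumours, and Hspa1a had 61.2, 61.1, 9.74 and 17.0 FPKM in BdP PBS against 0.52, 8.21, 32.6 and 1.34 in WT PBS. BdP PBS 1 and 2, where Junb, Zfp36 and Egr1 also had their highest values of that group, had the highest values of both genes, and WT PBS 3 reached into the range of the BdP PBS group. Hspa1a and Hspa1b are near-identical copies, so the split of reads between them is uncertain. None of the 11 listed heat shock genes was called under PBS (Hspa1b log2 fold change 1.83 ± 0.58, adjusted p = 0.137 by limma, and Hspa1a 2.35 ± 0.89, adjusted p = 0.182). Both fold changes include WT PBS 1, the lowest WT PBS library for Hspa1b and Hspa1a. With cisplatin in BdP tumours 10 of 11 were negative with a median of -0.25, none called, and Hspa1b averaged 22.1 ± 14.7 FPKM in BdP cisplatin and 87.5 ± 44.0 in BdP PBS. Without WT PBS 1, the mean of the 10 genes correlated over 15 libraries with Hspa1a (r = 0.91), Dnajb1 (0.89) and Hspa1b (0.88). Over all 16 libraries r was 0.82 for Hspa1a, 0.31 for Dnajb1 and 0.71 for Hspa1b. These genes were picked after their values were seen, and r of the other listed heat shock genes is not given. The 1 heat shock gene called was Hspb1, a small heat shock protein, with 0.94, 0.59, 3.11 and 1.33 FPKM in BdP cisplatin and 9.54, 4.47, 36.5 and 29.3 in WT cisplatin tumours (log2 fold change -2.78 ± 0.56, adjusted p = 0.0267). That call was lost without any 1 of BdP cisplatin 1, 2 and 4 or WT cisplatin 1, 3 and 4 (adjusted p between 0.0616 and 0.110) and without the 3 libraries rich in mitochondrial reads (adjusted p = 0.168). It was also lost with a pseudocount of 5 FPKM (0.0564), without a filter on low values (0.0639), with limma-voom (0.0963) and in a fit of the 2 groups alone (0.0563).

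Of 17 genes known as AP-1 targets, 13 were tested and 11 had positive fold changes of BdP over WT under PBS, with a median of 0.69, or 0.47 without WT PBS 1, and none was called. The neutrophil-attracting chemokines Cxcl2 and Cxcl1 had the smallest p, with log2 fold changes of 1.88 ± 0.80 (adjusted p = 0.221) and 1.55 ± 0.67 (adjusted p = 0.230). WT PBS 1, which is included in these fold changes, was the lowest WT PBS library for both chemokines. Cxcl2 had 205, 52.6, 68.3 and 57.7 FPKM in BdP PBS against 5.45, 59.4, 47.6 and 12.1 in WT PBS tumours, and the groups overlapped. Plaur, the urokinase receptor, and Mmp13, a collagenase, followed with 0.94 ± 0.46 (adjusted p = 0.275) and 1.72 ± 0.90 (adjusted p = 0.305).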
